A study of Mus musculus with 12 samples.

Results

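Of 72244 merged H2AK119ub regions in mouse blood progenitors, 13891 held a peak in the library with ASXL1 (1-590) and none in the libraries with empty vector, 10RA or 25RA. They were found by merging the peak intervals of these 4 libraries on chromosomes 1 to 19, X and Y wherever they shared at least 1 base, and keeping each merged region met by the 1-590 list alone. The regions were thus selected on the peak lists themselves, and the fold and p of these peaks in the 1-590 library, and their absence from the other lists, are given only as a description. The 13891 regions were 43.0% of the 32307 merged regions with a 1-590 peak, and each was made of 1 peak.

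The cells were c-Kit+ bone marrow cells of the mouse, labelled as haematopoietic stem and progenitor cells with the genotype "mock". All were transduced with a retrovirus for BAP1, the empty vector group included, together with a second retrovirus. In the 1-590 set that second virus carried nothing (empty vector), ASXL1 residues 1 to 590 (1-590), or 1 of the altered forms of that fragment, labelled as impaired (10RA) or defective (25RA) in condensation. In the 1-1067 set it carried nothing, ASXL1 residues 1 to 1067 (1-1067), or the charge-neutralized forms 34DN and 36EQ of that longer fragment. H2AK119ub was profiled by CUT&RUN, where an antibody directs a nuclease to cut out the marked chromatin for sequencing, with 1 library for each of these 8 conditions. A further 4 ChIP-seq libraries gave BAP1 and ASXL1 peaks with 1-590 and with 10RA; their labels name antibodies to the proteins, while the protocol names the HA tag. The labels record no deletion of the endogenous genes, and give no ages, sexes or numbers of mice. In the 25RA, 34DN and 36EQ lists the individual peaks are named with codes unlike the titles of their samples, and the titles were followed. With 1 library per condition no test between conditions was possible, and the 95% Wilson intervals below cover counting error only.

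H2AK119ub is the single ubiquitin that Polycomb repressive complex 1 places on a lysine of histone H2A, mostly at CpG islands of silent or weakly transcribed genes. BAP1 is the deubiquitinase that removes it, and ASXL1 is the partner that binds and activates BAP1. Truncating ASXL1 mutations are frequent in myelodysplastic syndromes, acute myeloid leukaemia and clonal haematopoiesis. They leave an amino-terminal fragment that keeps the BAP1-binding domain, and the study asked how truncated and condensation-altered forms change this chromatin mark.

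To show what such regions look like, the sequence from 100 bases before to 100 bases after the summit is given for 3 promoter members and 3 members elsewhere. They are the first by fold (3 at promoters, 2 outside genes, 1 in an intron) whose window holds no annotated UTR base, so stronger promoter members, named further on, were passed over. All are read from the + strand of GRCm39, 5′ to 3′, with CpG dinucleotides in capitals.
Cic promoter, chr7:24967543-24967743: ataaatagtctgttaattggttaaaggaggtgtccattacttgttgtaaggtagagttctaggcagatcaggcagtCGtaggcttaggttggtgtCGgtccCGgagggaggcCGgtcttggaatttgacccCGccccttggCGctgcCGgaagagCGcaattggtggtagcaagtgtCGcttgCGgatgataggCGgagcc
Aftph promoter, chr11:20691663-20691863: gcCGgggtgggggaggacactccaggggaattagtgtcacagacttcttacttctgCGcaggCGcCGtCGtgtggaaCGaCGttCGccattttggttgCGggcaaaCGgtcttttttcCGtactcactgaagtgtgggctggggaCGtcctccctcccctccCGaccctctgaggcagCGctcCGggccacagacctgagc
Rnf26 promoter, chr9:44024852-44025052: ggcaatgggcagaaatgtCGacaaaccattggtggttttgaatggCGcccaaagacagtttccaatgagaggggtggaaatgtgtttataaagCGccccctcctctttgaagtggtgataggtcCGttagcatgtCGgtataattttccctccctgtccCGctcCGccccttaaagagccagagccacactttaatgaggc
outside genes, nearest gene Alkbh8, chr9:3006726-3006926: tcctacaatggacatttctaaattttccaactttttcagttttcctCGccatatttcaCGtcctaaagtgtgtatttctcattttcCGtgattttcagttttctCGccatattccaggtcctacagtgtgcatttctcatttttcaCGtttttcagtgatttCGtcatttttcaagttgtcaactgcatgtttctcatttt
outside genes, nearest gene Pdia4, chr6:47730193-47730393: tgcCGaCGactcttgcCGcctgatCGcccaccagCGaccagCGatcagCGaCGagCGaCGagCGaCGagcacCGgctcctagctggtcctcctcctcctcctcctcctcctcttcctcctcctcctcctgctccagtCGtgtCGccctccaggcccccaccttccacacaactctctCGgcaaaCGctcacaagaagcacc
intron, nearest start site that of Tbc1d5, chr17:51300766-51300966: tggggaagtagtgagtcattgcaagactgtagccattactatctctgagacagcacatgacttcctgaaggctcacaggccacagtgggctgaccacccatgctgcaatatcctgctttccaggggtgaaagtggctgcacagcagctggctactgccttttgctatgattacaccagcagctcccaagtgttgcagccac
The windows at Cic, Aftph and Rnf26 hold 11, 15 and 7 CpG dinucleotides, whereas the intronic window nearest Tbc1d5 holds none. The CpG observed over expected ratio, which is 1 when CpG occurs as often as its 2 bases predict, was 0.83 at Cic, 0.77 at Aftph and 0.55 at Rnf26. The Cic window holds, on one strand or the other, the GC box, ETS and CCAAT motifs counted below, and the Rnf26 window holds the GC box and CCAAT. The window nearest Alkbh8 consists of sequence present in about 80 copies in the GRCm39 assembly, and the one nearest Pdia4 in 15 copies. These are medians, over the window, of how often runs of 32 bases occur in the assembly. Copies missing from the assembly are not counted, so the number in the genome may be larger.

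Most regions listed in the 1-590 set belonged to a single library. The 25RA list alone held 16033 merged regions, the 1-590 list alone 13891, the 10RA list alone 12731 and the vector list alone 6794, while 6423 were common to all 4 libraries. Regions peculiar to 1 list were 42.7% of the 1-590 peaks, 33.8% of the vector peaks, 45.1% of the 10RA peaks and 47.3% of the 25RA peaks. By this count the 1-590 list did not stand out from the 10RA and 25RA lists. The rule called 19.2% of all merged regions as listed only with 1-590.

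**Figure D1:**
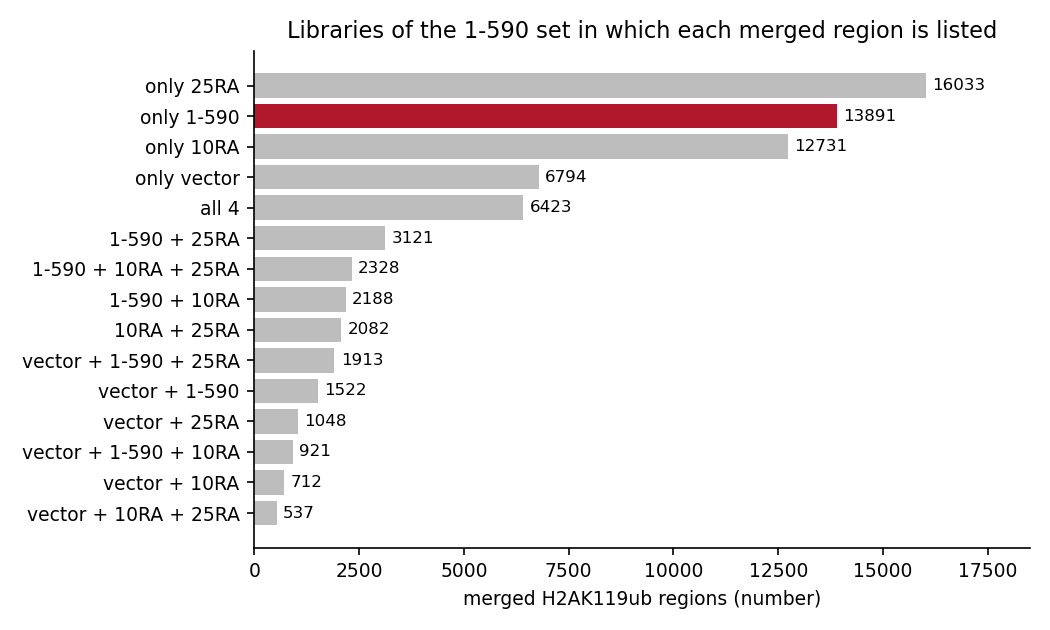
Number of merged H2AK119ub regions (horizontal axis) for each combination of the 4 libraries of the 1-590 set in which a region is listed; 1 library per condition. The bar for regions listed only with 1-590, in red, reaches 13891 and lies between only 25RA (16033) and only 10RA (12731).

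Depth differed between these libraries. The lowest local background in each list, which serves as a measure of depth, was 2.06 fragments per base with 1-590, 1.86 with 25RA, 1.72 with 10RA and 0.908 with vector. If each member kept its 1-590 enrichment and was sequenced to the vector library's depth, 7105 of 13891 members (51.1%) would be expected to pass the p of 0.001 at which the lists end. The same expectation was 90.0% at the depth of 10RA and 94.4% at that of 25RA, and 88.7% at vector depth for the regions of all 4 lists. A region that is not listed is thus not a region without the mark, above all in the vector list. The 1-590 list also held the most peaks with a p of 1e-08 or less, 10472, against 4040 with vector, 4653 with 10RA and 6573 with 25RA.

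Members were mostly modest peaks. At the summit their median fold over local background was 3.09 (quartiles 2.73 and 3.53), with a median of 15 fragments over a background of 4.07, and their median length was 278 bases. Regions shared with 1 other library had a median fold of 3.23, and those shared with 2 had 3.50. Those in all 4 lists had 4.70, with 31 fragments and a merged length of 723 bases. That length joins the peaks of every list that meets the region, so shared regions are longer partly by construction. The fold reached 3 in 7841 members (56.4%), 5 in 168 (1.21%), 8 in 3 and 10 in 1. Among the 1000 1-590 peaks of largest fold 7 were members, and among the first 5000 there were 321. A q of 0.05 or less was recorded for 12882 members (92.7%). Members thus fill the lower and middle ranks of the list, and few of its tallest peaks. In bulk chromatin, more cells with the mark at a region and more mark per cell cannot be told apart.

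**Figure D2:**
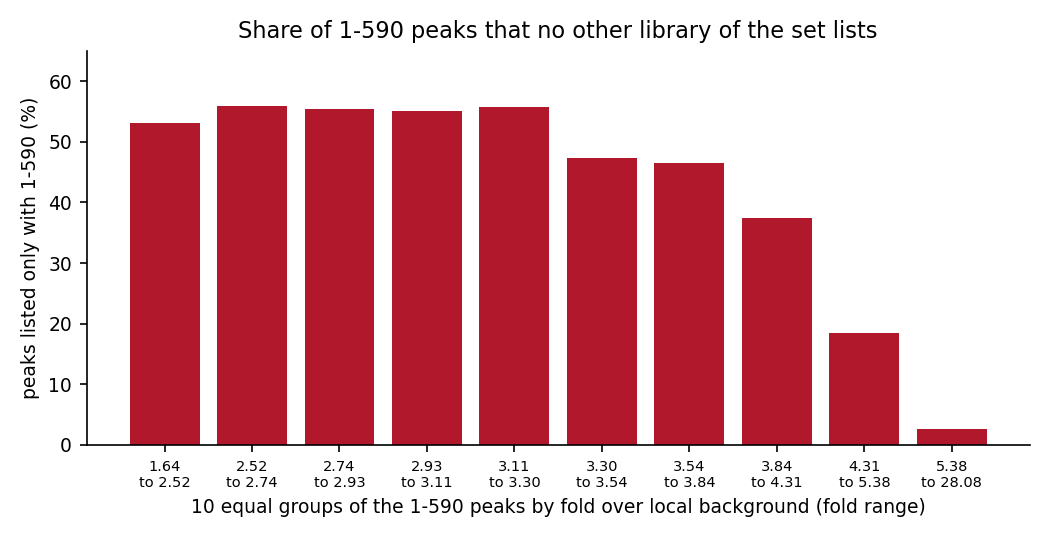
Share of 1-590 peaks that are listed only with 1-590 (vertical axis, percent), in 10 equal groups of the 1-590 list by fold over local background (horizontal axis, fold range of each group). The share is between 53.0% and 55.8% in the 5 lowest groups and falls to 18.5% and 2.65% in the 2 highest.

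At the edge of the rule, 39 members lay within 10 bases of a peak of vector, 10RA or 25RA without touching it, 328 (2.36%) within 100 bases and 2535 (18.2%) within 1 kb. The median distance to the nearest such peak was 5969 bases. Just outside, 28 of the 6831 regions with 1-590 and 1 other library shared 10 bases or fewer, and their median overlap was 221 bases. The 3 members of weakest p, near Mllt10, Psat1 and Ahcyl2, had folds of 2.61, 2.38 and 2.16. Within 5 kb of another list's peak were 44.5% of members, and the corresponding shares were 45.2%, 40.2% and 39.2% for regions peculiar to vector, 10RA and 25RA. Members therefore often sat beside chromatin that another library lists, at a share near that of the vector regions and above those of 10RA and 25RA.

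Position was not used by the rule. The summit of 2442 members (17.6%, interval 17.0 to 18.2%) lay at a promoter, taken as 2 kb to either side of the start site of a protein-coding gene, against 23% of all merged regions. A further 1020 members (7.34%) lay in exons, 4994 (36.0%) in introns and 5435 (39.1%) outside genes. Regions peculiar to vector were at promoters in 10.8% of cases, those peculiar to 10RA in 8.76% and those peculiar to 25RA in 10.1%, while 74.2% of the regions common to all 4 lists were. Members were thus at promoters more often than the regions of any other single list, beyond counting error, and far less often than shared regions. Without members that had another list's peak within 5 kb the share fell to 10.3%, and the regions peculiar to vector, 10RA and 25RA under that same condition gave 4.41%, 4.37% and 4.89%.

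The same order was seen under stricter limits on p, chosen after the data were seen. These limits are floors on strength and do not make the lists equal, since the spread of p beyond a limit and the depth behind it differ between libraries. Among regions whose peak had a p of 1e-05 or less, 22.4% of members were at promoters, against 12.7% of regions peculiar to vector, 10.0% for 10RA and 11.4% for 25RA. At a p of 1e-08 or less the shares were 36.5% of 1293 members (33.9 to 39.2%), 18.7% of 203 vector regions (14.0 to 24.6%), 10.7% of 477 10RA regions (8.23 to 13.8%) and 14.4% of 728 25RA regions (12.1 to 17.2%). The intervals of members did not overlap those of the other lists at any of the p limits. Within the members the promoter share did not rise with fold: in 4 groups from smallest to largest fold it was 24.4%, 15.3%, 13.2% and 17.4%. Because each list comes from 1 library, the ASXL1 form cannot be told apart from the quality of its library, including the larger number of strong 1-590 peaks given above.

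**Figure D3:**
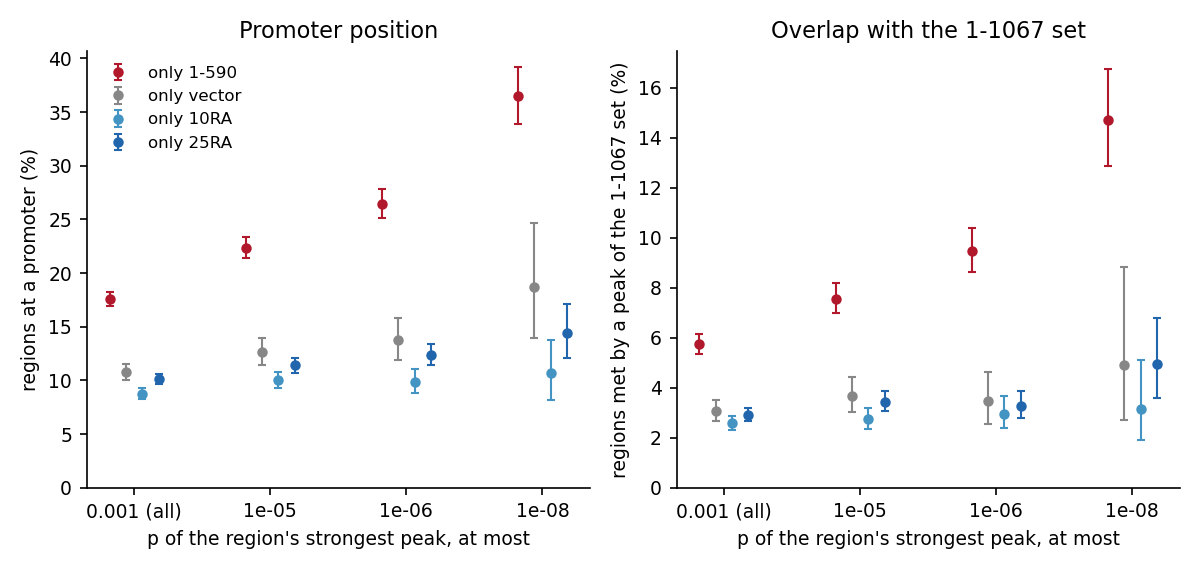
Left, share of regions at a promoter, and right, share met by a peak of any H2AK119ub library of the 1-1067 set (vertical axes, percent), for regions peculiar to 1 library of the 1-590 set, by the p of the region's strongest peak (horizontal axes); points are shares, bars their 95% Wilson intervals. Regions listed only with 1-590 lie highest at each limit, reaching 36.5% and 14.7% at 1e-08.

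Within promoters, member summits gathered near the start site. Their median distance from it was 408 bases, and 54.2% lay within 500 bases, while 32.1% lay more than 500 bases downstream and 13.6% more than 500 bases upstream. Promoter regions peculiar to vector, 10RA and 25RA lay a median of 730.5, 853 and 874 bases away, and those common to all 4 lists 144 bases away. Members therefore fell between the other single-list regions and the shared ones in how close they came to the start of transcription.

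**Figure D4:**
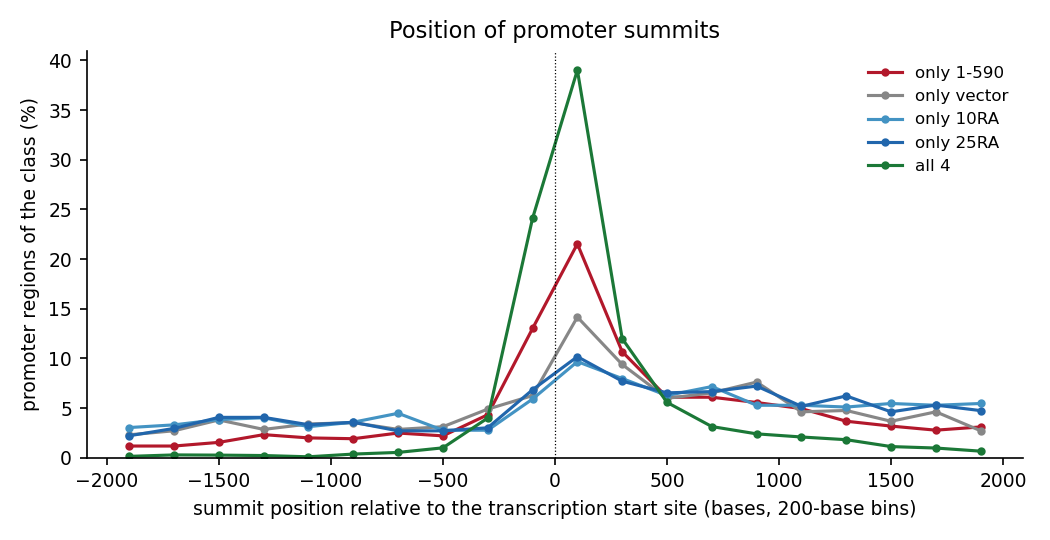
Share of each class's promoter regions (vertical axis, percent) by position of the summit relative to the start site (horizontal axis, 200-base bins, downstream to the right). The regions listed only with 1-590 (red) peak just downstream of the start, above the regions peculiar to vector, 10RA and 25RA and below those common to all 4 libraries; 54.2% of them lie within 500 bases.

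The sequence under the summits followed location. Over all members the median GC content of these windows was 53.2% and the median CpG ratio 0.22, with no CpG at all in 10.3% of windows. At promoters the median CpG ratio of members was 0.61, against 0.42, 0.32 and 0.38 for promoter regions peculiar to vector, 10RA and 25RA and 0.84 for those common to all 4. Windows rich in CpG (a ratio above 0.6 and GC above 50%) made up 49.1% of promoter members, 33.2%, 21.3% and 26.1% of the promoter regions of the other single lists, and 84.6% of the shared ones. Away from promoters members were CpG-poor, with a median ratio of 0.20 and 3.98% CpG-rich windows, against 0.20 and 5.14% for all merged regions there and 2.72%, 2.44% and 2.54% CpG-rich windows for the regions peculiar to vector, 10RA and 25RA. In and outside promoters, CpG-rich windows were thus more frequent among members than in the other single lists.

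Short motifs were counted on both strands of the same windows. The GC box GGGCGG, recognised by SP and KLF factors, was present in 33.5% of promoter members, 21.0%, 13.7% and 19.5% of promoter regions peculiar to vector, 10RA and 25RA, and 39.5% of all merged promoter regions. The ETS core CCGGAAG was present in 6.92% of promoter members, against 3.41%, 1.61% and 2.28%, and in 7.56% of all merged promoter regions. Both motifs contain CpG, and their counts at matched CpG content were not tested. CCAAT, which has no CpG, was present in 17.9% of promoter members and in 16.5%, 19.6% and 17.2% of the others. Over all locations, AGATAA, read by the GATA factors of blood, occurred in 6.52% of members, in 7.20%, 6.10% and 6.11% of regions peculiar to vector, 10RA and 25RA, and in 5.64% of merged regions. TGTGGT, read by RUNX factors, occurred in 17.0% of members, in 16.5%, 16.1% and 16.4% of the others and in 15.6% of merged regions. Over all locations members resembled the other single lists for these letters. At promoters TGTGGT occurred in 10.6% of members (9.41 to 11.8%), below 14.7% for 10RA (12.8 to 16.9%) and 13.7% for 25RA (12.1 to 15.5%). The vector share was 11.2%. AGATAA at promoters occurred in 3.52% of members (2.86 to 4.33%), below 5.92% for 10RA (4.68 to 7.46%). The vector and 25RA shares were 5.18% (3.79 to 7.03%) and 3.27%. Promoter counts at matched GC content were not tested.

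The promoter shared by Pet100, a factor for cytochrome oxidase assembly, and Xab2, a splicing and repair protein, carried the promoter member of largest fold, with 35 fragments over a background of 3.48 (fold 8.04). Clk1, a kinase of splicing factors, and Ddx18, an RNA helicase of ribosome assembly, each had 23 fragments over 2.18 (fold 7.56). Eri3, an exoribonuclease, reached 7.33, and the promoter shared by Snap29, a membrane fusion protein, and Pi4ka, a lipid kinase, reached 7.12. At Actb, which encodes beta-actin, 56 fragments lay over a background of 7.22 (fold 6.93), 817 bases from the start site. Of these, only the Snap29 region had another list's peak within 1 kb, at 213 bases.

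The next promoters belonged to genes of varied function. Smurf2, a ubiquitin ligase of TGF-beta signalling, had a fold of 6.60, the splicing factor gene Cwc22 6.50 and the mitochondrial ribosome gene Mrpl45 6.31. Rc3h2, which encodes an RNA-binding Roquin protein, had 6.21, and Cic, a transcriptional repressor downstream of receptor tyrosine kinases, had 6.20. The spectrin gene Sptan1 reached 6.10, the trafficking gene Aftph 6.09 and the polyubiquitin gene Ubb 6.05. The ubiquitin ligase gene Rnf26 had 5.85, the apoptosis inhibitor gene Birc3 5.84 and the chaperonin gene Cct2 5.68. Zfp131 (6.52), Tstd3 (6.21), Polr2m (6.06), Acp2 (5.95), Sart3 with Iscu (5.94), Pbdc1 on the X chromosome (5.92), Cwf19l1 (5.83) and Poglut2 with Bivm (5.62) completed the strongest 25. At vector depth each of the 25 would pass the list's threshold with a probability of at least 93.5%, against 51.1% over all members. That probability is computed from the same peak values by which the 25 were chosen, so high values follow from the choice. Why the vector list lacks these regions was not tested.

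Away from promoters the strongest member had a fold of 14.1 and lay outside genes at chr9:3006763-3007303. This is the repeated sequence shown above, and all 4 libraries of the 1-1067 set and all 4 ChIP libraries listed a peak there. The next were outside genes nearest Pdia4 (fold 8.50, sequence also repeated), Asap2 (7.61), Ncf4 (6.78) and, on the X chromosome, Pls3 (7.52, in 5 copies) and Rab39b (7.36). Introns held those nearest the start sites of Tbc1d5 (6.86) and Tm9sf3 (6.43). Repeated sequence was uncommon: 327 members (2.35%) had a median of 2 or more genome copies, against 3.49%, 3.17% and 2.94% of the regions peculiar to vector, 10RA and 25RA. Reads from such copies cannot be placed with certainty.

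By length, the most extended member was 1334 bases at Atp2b1, the gene of a plasma membrane calcium pump. It was followed by 1236 bases in an exon near Lyl1, a blood stem cell transcription factor, 1165 bases near Cxxc5, 1110 bases at the polyadenylation factor gene Cpsf6 and 1109 bases at the histone demethylase gene Kdm3b. The Atp2b1 and Lyl1 regions lay 251 and 362 bases from another list's peak. Among single genes, Pde4d held 20 members in or within 2 kb of it, Fgfr2 19, Dmd 17, Gse1 12, and Itpr2, Lpp and Rad51b 11 each. In the annotation used, those genes span between 352935 bases (Gse1) and 2961609 bases (Fgfr2). Regions within such wide bounds may belong to other genes. Against 19.2% of all merged regions, members were 20 of 76 merged regions at Pde4d, 19 of 123 at Fgfr2 and 17 of 35 at Dmd. They were 12 of 46 at Gse1, 11 of 36 at Itpr2, 11 of 28 at Lpp and 11 of 25 at Rad51b. These genes were chosen for their number of members, which favours a larger share. Dmd lies on the X chromosome, where 23.9% of merged regions were members.

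In terms of genes, 2476 of 21738 coding genes (11.4%) had a member at the promoter. For 1231 of them (5.66% of coding genes) no promoter peak was listed in vector, 10RA or 25RA, so the promoter as a whole, and not only the member, was peculiar to the 1-590 list. The other genes already carried a peak elsewhere in the promoter: 663 of the 2476 in vector, 727 in 10RA and 908 in 25RA. Another 1-590 promoter peak in a shared region accompanied the member at 768. The median fold of all promoter members was 2.98, slightly below the 3.15 of members in introns, over a higher local background (5.91 against 3.66 fragments). The lists of genes below are read against 11.4% and 5.66%. A gene can carry a member only where the 1-590 list has a promoter peak, and among the 11881 genes with such a peak 20.8% carried one. Such peaks were frequent in several lists, at 30 of 37 stem cell and leukaemia regulators, 28 of 28 growth and replication genes, 18 of 20 apoptosis genes, 18 of 22 autophagy and lysosome genes and 12 of 14 cell cycle inhibitors and tumour suppressors.

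Regulators of blood stem cells and leukaemia carried a member at 12 of 37 promoters, with a median fold of 2.69. At 4 of the 12 the promoter had no peak in the other 3 lists. These were Nras, the small GTPase gene mutated in myeloid leukaemia, with 14 fragments over 2.06 (fold 4.90), Erg with 21 over 7.01 (2.75), Runx1 with 23 over 8.12 (2.63) and Meis1, the partner of HOXA9, with 29 over 11.2 (2.46). The other 8 (Cebpa, Gata2, Gfi1, Kmt2a, Lmo2, Myb, Runx3 and Tet2) already had a promoter peak in at least 1 other list. Tet2, the methylcytosine dioxygenase often mutated beside ASXL1, had the largest fold among them, 4.42, at 348 bases from another list's peak. At vector depth a peak like that of Nras would pass with a probability of 81.5%, and those of Erg, Runx1 and Meis1 with 45.4%, 43.6% and 53.9%.

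Hox genes are the classical Polycomb targets that set position along the body axis and self-renewal in blood. They had members at 5 of 39 promoters, with a median fold of 2.01. A promoter peak was listed at 24 Hox genes with 1-590, 15 with vector, 28 with 10RA and 26 with 25RA. The 1-590 list thus held fewer Hox promoters than the 10RA and 25RA lists. Hoxa11 had 68 fragments over 24.9 (fold 2.66), Hoxb8 58 over 22.6, Hoxc8 39 over 18.9 (2.01), Hoxc10 41 over 20.5 (1.95) and Hoxa9 44 over 25.0 (1.73). Local background there was several times that of a typical member, 4.07, and other lists had peaks between 195 and 2331 bases away. Only Hoxb8 lacked a promoter peak in every other list. Hoxa3, Hoxa5, Hoxa7, Hoxa10 and Hoxa13 had no member at the promoter, and Hoxa3 had 1 in or within 2 kb of the gene. Developmental regulators of other lineages showed members at 11 of 48 promoters (median fold 2.51). Their promoters with a peak numbered 25 with 1-590, 20 with vector, 30 with 10RA and 26 with 25RA. Isl1 (3.59), Cdx1 (2.56) and Pax6 (1.91), transcription factors of heart, gut and eye, were among those with no promoter peak in the other lists, and Foxd3, Hand2, Lhx2, Nkx2-2, Nkx2-5 and Sox2 were among those with one.

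The larger shares fell in lists of varied function. Cell cycle inhibitors, stem cell regulators, mast cell, apoptosis, autophagy, interferon-stimulated and growth genes had between 25% and 35.7%. These are shares of all genes of a list, and the order differs among genes with a 1-590 promoter peak. Of those, 5 of 9 interferon-stimulated genes, 11 of 25 developmental regulators and 7 of 28 growth genes had a member, against 20.8% over all genes with such a peak. Cell cycle inhibitors and tumour suppressors had members at 5 of 14 promoters (median fold 4.16). Rb1, the retinoblastoma gene, had 18 fragments over 3.57 (fold 4.16) and Tsc1, a brake on mTOR signalling, 22 over 4.41 (4.25), and neither promoter had a peak in the other lists. Cdkn1a, which encodes the CDK inhibitor p21, reached 4.92 with 45 fragments over 8.34, but its promoter was also listed in 25RA and another list's peak lay 682 bases away. Nf1 (2.55) and Trp53 (3.14) likewise had promoter peaks in other lists. Cdkn2a, the Ink4a/Arf locus, had no member at its promoter and 1 in or within 2 kb of the gene.

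Apoptosis genes had members at 6 of 20 promoters (median fold 3.06), 4 of them without a promoter peak elsewhere. Pmaip1 (Noxa) had 24 fragments over 4.75 (fold 4.35), and the pore-forming Bax and Bak1 had folds of 3.33 and 2.45, with 14 and 12 fragments. The death receptor gene Fas had 2.90, while Bbc3 (2.72) and Bcl2 (3.21) carried other peaks. At vector depth peaks like those of Pmaip1, Fas, Bax and Bak1 would pass with probabilities of 89.8%, 57.7%, 42.6% and 24.0%. The Bak1 peak also lay close to the p at which the lists end, and its q was above the limit given earlier. Its absence from the other lists therefore says little about the mark there. Autophagy and lysosome genes had members at 6 of 22 promoters (median fold 3.98), again 4 without a peak elsewhere: the cargo receptor gene Sqstm1 (4.66), Atg13 of the initiating complex (4.58), and Map1lc3b (3.62) and Map1lc3a (2.65), which encode the LC3 proteins of the autophagosome. Ulk1 (4.34) and Atg4b (3.15) were the other members of that list. The lists are small, so each of these shares rests on few promoters.

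Growth and replication genes had members at 7 of 28 promoters (median fold 3.21). The helicase gene Mcm5 (3.95) and the cyclin-dependent kinase gene Cdk4 (3.53) had no promoter peak elsewhere, whereas Cdt1 (3.87), Eif4e (3.21), Mycn (3.19), Myc (2.61) and Cdk6 (2.54) had one. DNA repair genes had 2 of 23, Brca2 (4.62) without a peak elsewhere and Atr (3.94) with one. Chromatin regulators had 7 of 38 (median fold 3.47). Among these the remodellers Chd2 (4.57) and Arid1a (3.38) had no promoter peak elsewhere, and Kat6a (5.59), an acetyltransferase fused in leukaemia, lay 53 bases from another list's peak. Kat2a, Kmt2a, Kmt2c and Smarca2 made up the rest.

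Polycomb subunits had members at 5 of 34 promoters (median fold 2.64). L3mbtl2 (3.43) and Phf19 (2.44), which encode a variant PRC1 subunit and a PRC2 accessory protein, had no promoter peak elsewhere, and Rybp (3.90), Pcgf5 (2.64) and Epop (1.82) had one. None of the 12 genes of the BAP1 complex and its partners carried a member at the promoter. All 4 lists of the set had a peak at the Bap1 promoter, and Asxl1 had promoter peaks with 1-590 and 25RA in regions that are shared, with 1 member elsewhere in or within 2 kb of the gene.

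Genes of differentiated blood cells are given by lineage, and counts this small do not separate the lineages. A 1-590 promoter peak was listed at 10 of 27 neutrophil and monocyte genes and 7 of 13 mast cell and basophil genes. It was listed at 9 of 22 erythroid and megakaryocyte, 9 of 23 lymphoid and 9 of 16 stromal and endothelial genes. Neutrophil and monocyte genes had members at 4 of 27 promoters (median fold 2.73). Cebpe, the granule gene regulator (2.83), the Fc receptor gene Fcgr3 (2.80) and the monocyte factor Irf8 (2.51) had no promoter peak elsewhere, and Klf4 (2.66) had. Mast cell and basophil genes had 4 of 13, with Gzmb (4.09) without a peak elsewhere, and Cpa3, Mcpt8 and Tpsb2 with one. Erythroid and megakaryocyte genes had 1 of 22 (Pf4), lymphoid genes 1 of 23 (Tcf7, 2.31, without a peak elsewhere) and stromal and endothelial genes 1 of 16 (Eng). Interferon-stimulated genes had 5 of 20 (median fold 2.95), of which the RNA sensor gene Ifih1 (3.84), Mx1 (2.95) and Ifit1 (2.60) had no promoter peak elsewhere, and Cxcl10 and Irf9 had. Cytokine and JAK-STAT genes had 2 of 26, the kinase gene Jak3 (4.61, 34 fragments over 6.59) and Tnf (2.51), both without a peak elsewhere. A peak list of H2AK119ub does not show which cell types were present, and their part in these values was not tested.

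**Figure D5:**
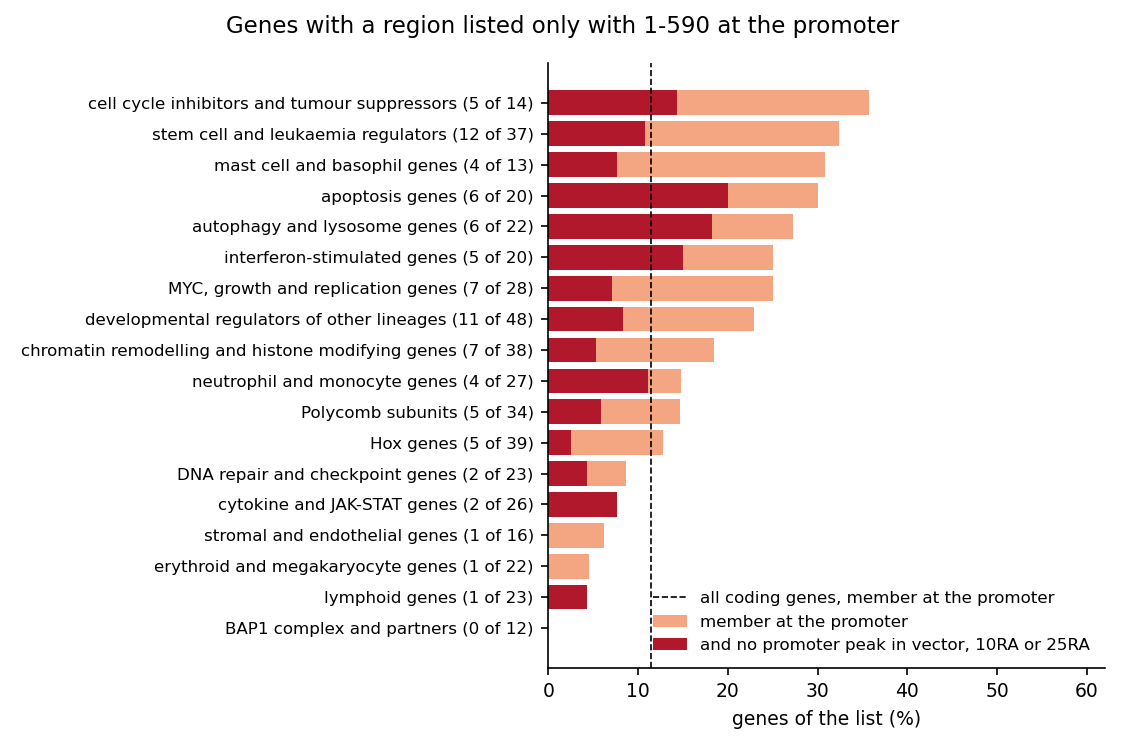
Share of each gene list (horizontal axis, percent of its genes) with a region listed only with 1-590 at the promoter (light bars) and, of the list, those that also lack any promoter peak in vector, 10RA and 25RA (dark bars); numbers in brackets are genes with such a region of genes found, and the dashed line is the 11.4% of all coding genes. Shares range from 0 of 12 genes of the BAP1 complex to 5 of 14 cell cycle inhibitors and tumour suppressors.

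The 1-1067 set had its own matched vector control, its lists hold between 5307 and 6310 peaks, and it played no part in the rule. A peak of at least 1 of its 4 H2AK119ub libraries met 796 members (5.73%, interval 5.36 to 6.13%), against 8.19% of all merged regions and 34.2% of the regions common to the 4 lists of the 1-590 set. The corresponding shares were 3.06% (2.68 to 3.50%) of regions peculiar to vector, 2.58% (2.32 to 2.87%) for 10RA and 2.91% (2.66 to 3.18%) for 25RA. Members were thus found again more often than regions peculiar to the other lists, beyond counting error, yet 13095 of 13891 were not found again. When only peaks of the 1-1067 set with a q of 0.05 or less were counted, 2.15% of members were met, against 0.839%, 0.636% and 0.773%. With an overlap of 50% of the member required, 3.55% were met, against 1.77%, 1.65% and 1.77%. Here too the ASXL1 form cannot be told apart from the quality of its library. Of the 1231 genes whose promoter was peculiar to the 1-590 list, 231 (18.8%) had a promoter peak in the 1-1067 set. That was slightly below the 20.3% of all coding genes.

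The longer ASXL1 form and its vector control met similar shares of members. The library with 1-1067 met 261 members (1.88%; background 3.34% of merged regions) and its own vector control 240 (1.73%; background 2.9%). The charge-altered forms met 198 (34DN, 1.43%; background 2.3%) and 260 (36EQ, 1.87%; background 3.09%). The intervals of 1-1067 (1.67 to 2.12%), its vector (1.52 to 1.96%) and 36EQ (1.66 to 2.11%) overlapped, and that of 34DN (1.24 to 1.64%) lay below those of 1-1067 and 36EQ. The 34DN list was also the shortest of the set, with 5307 peaks, and its background was the lowest. Its lower share of members therefore does not set the 34DN form apart. A member was met by 1 of the 4 libraries in 668 cases, by 2 in 102, by 3 in 17 and by all 4 in 9. The share met was 7.82% (6.82 to 8.95%) of promoter members, 191 of 2442, against 17.5% of all merged promoter regions and 5.18% (3.79 to 7.03%), 4.39% and 4.38% of the promoter regions peculiar to vector, 10RA and 25RA. At promoters the intervals of members and vector regions thus overlapped. Elsewhere it was 5.28% of members and 5.41% of merged regions. With members in 4 groups by fold the share met was 8.90% in the group of largest fold and 4.23% in that of smallest fold. At a p of 1e-08 or less 14.7% of members were met, against 4.93%, 3.14% and 4.95% of regions peculiar to vector, 10RA and 25RA.

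A few members recurred in most of the 1-1067 set. The Cic promoter, with 59 fragments over 8.68 in the 1-590 library, was listed in all 4 of its libraries and in no ChIP library. Tcf3, which encodes the E2A factor of lymphoid and stem cell programmes (fold 5.54), the promoter shared by the repair gene Faap24 and Cep89 (5.37), and Gtpbp1 (4.08) were listed in 3 of them. Regions outside genes near Rbbp6 (5.32) and Pak1ip1 (5.23), an intronic region near Impa2 (4.09) and an exonic one near Trim30a (3.79) were listed in 3 as well. Spata31e2 (3.92) was listed in all 4 and in all 4 ChIP libraries.

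BAP1 and ASXL1 ChIP peaks rarely met members. In all, 100 members (0.720%) were met by a peak of any of the 4 ChIP libraries, against 0.782% of merged regions, which is near the background. BAP1 peaks met 10 members with 1-590 (background 0.0858%) and 40 with 10RA (background 0.296%), and ASXL1 peaks met 56 with 1-590 (background 0.49%) and 14 with 10RA (background 0.177%). Of the 100, 92 were met in 1 library, 2 in 2 and 6 in all 4. At promoters 4 of 2442 members were met (0.164%, interval 0.0637 to 0.420%), against 0.289% of all merged promoter regions. Of the 8 members met by 2 or more ChIP libraries, 5 had 2 or more genome copies.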

How the data were processed

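The data were the authors' peak lists, 1 per library, from 8 H2AK119ub CUT&RUN and 4 ChIP-seq libraries of mouse c-Kit+ bone marrow cells. Processing ran with MACS3 3.0.3, Bowtie2 2.5.4, fastp 0.24.0, Picard and SAMtools, with the mouse build mm39, per the submitters' processing notes. The control library is not given in the sources used here. The labels state spike-in normalization for the CUT&RUN data, and how that entered the lists is not stated. Each deposited list gives, per peak, the position, a score, the fold over local background, −log10 p and −log10 q, and the summit offset, all the authors' values. The lists end at a p of 0.001, which their values show.

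Fragments at the summit and the local background were recovered from the deposited fold and p, by finding the whole number of fragments whose Poisson −log10 p differed from the deposited one by a relative 0.0001 or less. Such a number was found for at least 99.978% of peaks in each list, and for 99.997% in the 1-590 list. Depth was taken as the lowest local background of a list. The chance that a member passes a p of 0.001 at another library's depth was computed with the exact binomial. Gene positions came from the GENCODE annotation of GRCm39, the same assembly as mm39, with 21738 coding genes by symbol. A region was assigned to a promoter when the summit of its strongest peak lay within 2 kb of a start site. GC content, CpG and motifs were read from 100 bases before to 100 bases after the summit. Genome copies are counts of 32-base words in the GRCm39 assembly, and copies missing from it are not counted. A minimum overlap of 1 base counted as shared. Shares carry 95% Wilson intervals. The scripts were tested on simulated data, and ran with Python 3.11.15, numpy 2.4.6, scipy 1.17.1, pandas 2.3.3, pysam 0.24.0, matplotlib 3.10.9 and bedtools 2.31.1.

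Members named in the text are the 25 of largest fold at promoters, the 8 of largest fold elsewhere, up to 10 found again in 3 or more libraries of the 1-1067 set or 2 or more ChIP libraries, those at promoters of 18 gene lists, the 5 longest, the 3 of weakest p, the 5 genes with most members, and, always, the Hoxa genes, Cdkn2a, Asxl1 and Bap1. The members, lists and motifs were chosen with earlier results of these data known. Of 461 listed symbols 458 were found. Single values of a few genes are not reported here. The stricter p limits across lists, the genome copies and the X chromosome were chosen after the data were seen. Alternatives were the distance to other peaks, stricter p, q and fold, the promoter width, the overlap, the window and leaving out each other list.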

Additional observations from a re-analysis of the deposited data

How the results depend on the processing

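The number of members, 13891, fell to 7709 when regions with another list's peak within 5 kb were left out, to 7465 at a p of 1e-05, to 7841 at a fold of 3 or more, and to an expected 7104.6 at vector depth. The promoter share of 17.6% became 13.4% and 10.3% with no other peak within 1 kb and 5 kb, 18.7% with a q of 0.05 or less in every list, 22.4%, 26.5% and 36.5% at a p of 1e-05, 1e-06 and 1e-08, and 15.1% at a fold of 3. It was 13.0% and 23.9% with promoters of 1 kb and 5 kb. Leaving out the vector, 10RA or 25RA list gave 20.1%, 19.5% and 20.8%. Genes with a member at the promoter numbered 1553, 805 and 1266 with the 1 kb distance, the 5 kb distance and the fold of 3, against 2476. The share met by the 1-1067 set, 5.73%, became 4.88% with the 5 kb distance, 6.14% with the q limit in every list, 7.56%, 9.47% and 14.7% at the 3 p limits, 6.71% at a fold of 3, 3.55% with 50% overlap and 2.15% with a q limit on the other set. Without the vector or 25RA list it was 6.42% and 6.83%. The share met by ChIP, 0.720%, became 0.918% at a fold of 3, 0.490% with 50% overlap and 0.194% with the q limit on the ChIP lists. The median CpG ratio, 0.22, became 0.21 and 0.20 with the distances, 0.23 with the q limit, 0.25 at a p of 1e-05, 0.21 at a fold of 3, 0.23 to 0.24 without 1 other list and 0.22 in windows of 250 bases to each side. The direction against the other single lists was recomputed for the distances, the q limits, 50% overlap and single-copy sequence, and members had the larger promoter share and the larger share met by the 1-1067 set under each. The p limits of 1e-06 and 1e-08 and the single-copy split were chosen after the data were seen. No paired analysis was possible because each condition had 1 library. Depth limits the vector list most.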

Other observations

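Gene families outside the lists above are given beside the 11.4% of all coding genes with a member at the promoter. A gene can carry a member only where the 1-590 list has a promoter peak, and 20.8% of such genes did. Genes with a member and no promoter peak in vector, 10RA or 25RA were 49.7% of genes with a member and 5.66% of coding genes. Mitochondrial ribosomal protein genes had 16 of 78, and 12 of these promoters had no peak in vector, 10RA or 25RA. Proteasome genes of the Psm family had 7 of 39, all 7 without a promoter peak in the other lists. Replication-dependent histone genes had 14 of 74 (9 without one) and Tmem genes 36 of 232 (14 without one). Cytosolic ribosomal protein genes had 10 of 84, Slc transporter genes 45 of 374, Zfp zinc finger genes 41 of 412 and the complex I genes of the Ndufa, Ndufb and Ndufs families 3 of 32. Olfactory receptor genes, silent outside the nose, had 7 of 1187 and clustered protocadherin genes 1 of 58. Families that share sequence, such as histone genes, can share reads between copies.

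Members on the X chromosome numbered 714, or 5.14% (4.79 to 5.52%) of members. The share was 3.90% of regions peculiar to vector, 5.49% for 10RA, 4.45% for 25RA, 1.34% of regions common to all 4 lists and 4.14% of all merged regions. Of the merged regions on X 23.9% were members, against 19.2% of all merged regions. The labels give no sex for the mice, so X chromosome dosage in each library is not known.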
